A study of Mus musculus with 6 samples.

Results

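The pore-forming subunits of the voltage-gated potassium, HCN, sodium and calcium channels were compared in mouse hippocampus with and without knockdown of Hepacam. The genes were taken by symbol: protein-coding Kcna, Kcnb, Kcnc, Kcnd, Kcnh and Kcnq genes with a number, the numbered Hcn genes, the numbered Scn genes ending in a, and Cacna1a to Cacna1i with Cacna1s. This gave 54 of the 29872 genes measured: 30 potassium (Kv), 4 HCN, 10 sodium (Nav) and 10 calcium (Cav) channel genes. RNA came from hippocampus of C57BL/6 J mice and was sequenced in 6 libraries. In the 3 libraries titled shHepaCAM the genotype label is HepaCAM knockdown, and the 3 titled shControl have the genotype label WT. The same treatment text stands on all 6: an AAV, a viral gene carrier, was put into field CA1 on both sides to lower Hepacam, which encodes an adhesion protein of astrocytes. Which vector the shControl mice received, if any, is not stated. The promoter of the vector, the age and sex of the mice, and whether each library is 1 mouse are not given either, so p-values measure the spread between libraries, which may be technical.

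Voltage-gated channels open when the membrane potential changes and so shape the firing of neurons. Sodium channels start the action potential and most Kv channels end it or hold it back. HCN channels carry a depolarizing current that is switched on by hyperpolarization, and calcium channels couple firing to transmitter release and gene regulation. Each pore is built from large alpha subunits, encoded by the genes described here, and is tuned by smaller partner proteins.

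The libraries held 14903198 to 17341842 reads in shControl and 15816576 to 16384937 in shHepaCAM. Hepacam, the targeted gene, was lower in every shHepaCAM library, at 20.9 to 24.4 RPKM against 33.4 to 37.3. RPKM is reads scaled to gene length and to sequencing depth, so levels of different genes can be set side by side. Markers of the labelled tissue were present in every library: the neuronal gene Rbfox3 stood at 61.0 to 69.1 RPKM, the CA1 gene Wfs1 at 37.6 to 79.3 and the dentate gene Prox1 at 12.6 to 25.0. The choroid plexus transcript Ttr ran from 25.5 to 4192 RPKM and was lowest in shControl replicate 1 and shHepaCAM replicate 3. Microglia markers were higher in shHepaCAM, with 4 of 7 passing the test, where 4.23% of all genes tested were called higher. Their summed level was 358 to 445 RPKM against 204 to 246.

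Few channel genes passed the test, at a share close to that of all genes. Of the 54, 38 averaged 1 RPKM or more across the libraries and were tested with limma on log2(RPKM + 1), fitted over all 13864 genes that met this filter. Values per library are given below in replicate order, 1 to 3. At an adjusted p under 0.05, Kcnh3 and Kcna4 rose, Kcnc2 fell and 35 were not called. The 3 called genes are 7.89% of the channels tested, beside 6.07% of all genes tested. By direction, 4.23% of all genes were higher and 1.84% lower, so the channels' share lies close to that of all genes. The median log2 change was 0.02 over the channels and 0.05 over all genes, with 21 channels above 0 and 17 below. Values of the shHepaCAM libraries lay wholly above those of shControl for 7 channels and wholly below for 7, together 14 of 38, where 31.5% of all genes tested had groups that did not overlap. When shControl replicate 1 and shHepaCAM replicate 3, the libraries low in Ttr, were left out together, none of the 3 was called by limma (adjusted p of 0.148 for Kcnh3, 0.0806 for Kcna4 and 0.103 for Kcnc2), with changes of 0.36, 0.82 and -0.51, and 104 genes were called in all. Scaling moved the balance of all calls from 587 higher and 255 lower to 390 and 341 with quantile normalization. In whole tissue, fewer cells of a type and less RNA per cell cannot be told apart.

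**Figure D1:**
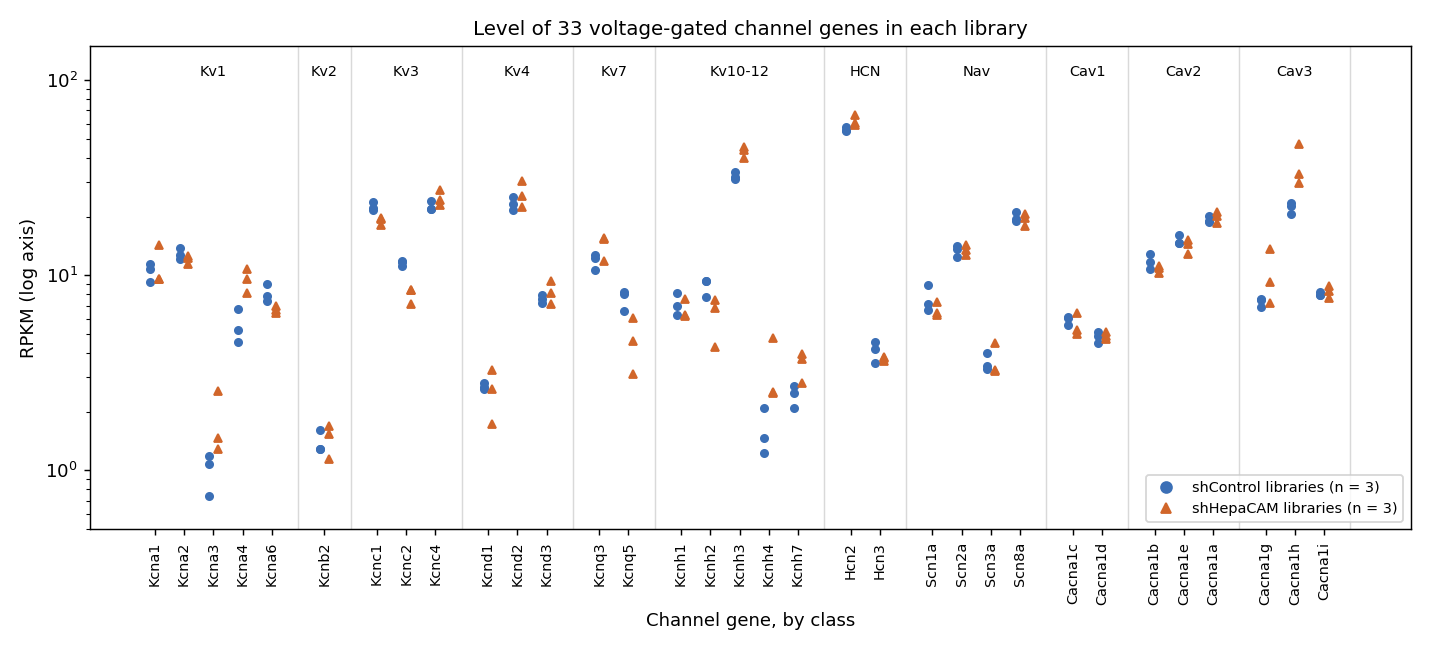
RPKM of 33 of the 38 channel genes tested, on a log axis, by channel class. Circles are the 3 shControl and triangles the 3 shHepaCAM libraries. Mean levels ran from 1.38 RPKM for Kcna3 to 58.9 RPKM for Hcn2, and the groups overlap for most genes.

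**Figure D2:**
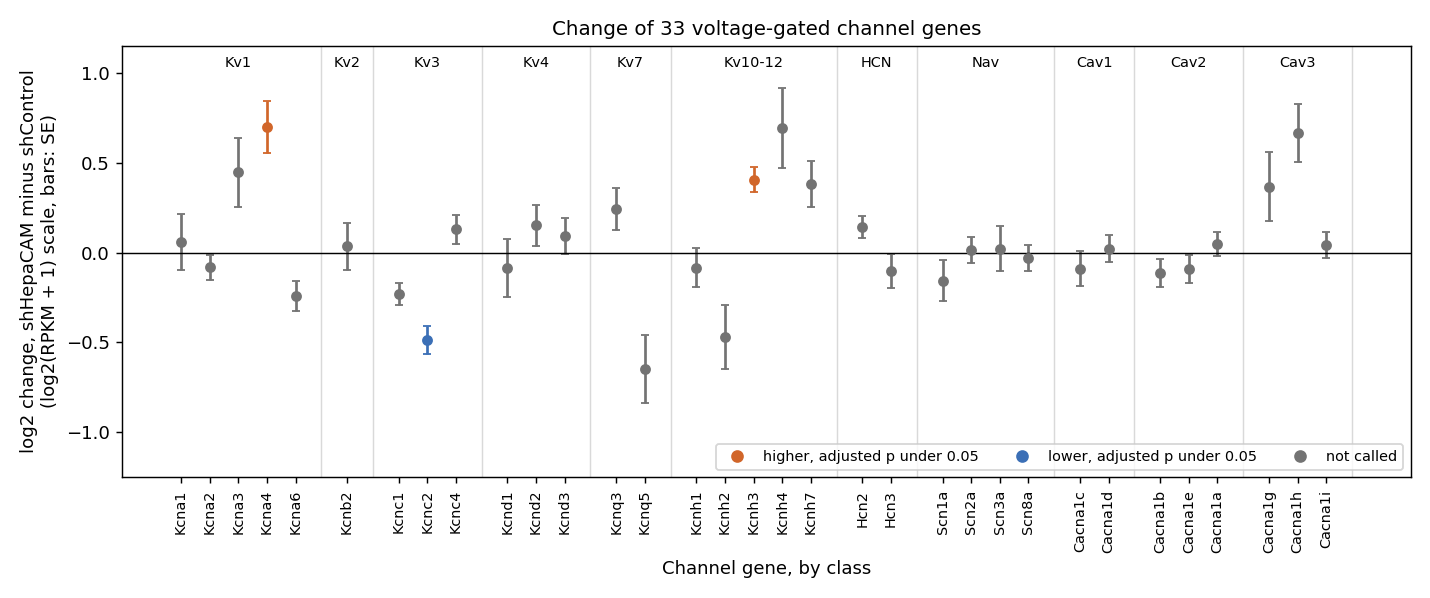
The log2 change (shHepaCAM minus shControl, on the log2(RPKM + 1) scale) of 33 of the channel genes tested, with its standard error. Kcna4 and Kcnh3 were called higher and Kcnc2 lower, while all sodium channel genes shown lay close to 0.

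The only channel gene called lower was of the Kv3 class. Channels of this class open on strong depolarization and close fast, so that neurons can fire at high rates. Kcnc2, which encodes a subunit found mainly in inhibitory interneurons, stood at 11.8, 11.8 and 11.2 RPKM in shControl and 8.45, 7.14 and 8.40 RPKM in shHepaCAM. All shHepaCAM values lay below all shControl values. The means were 11.6 ± 0.341 and 7.99 ± 0.743 RPKM (SD, n = 3 each), which is 31.1% lower. The log2 change was -0.49 (SE 0.08) and its limma adjusted p was 0.0202. These values rest on 4092 reads in shControl and 2758 in shHepaCAM. The call was lost without any 1 shControl library (adjusted p of 0.0683, 0.0873 and 0.0824 without replicates 1, 2 and 3) and held without any 1 shHepaCAM library, with changes of -0.42 to -0.53.

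Kcnc1, the other Kv3 gene of fast-firing interneurons, is described after its values were seen. It stood at 23.7, 21.7 and 22.2 RPKM in shControl and at 19.6, 19.4 and 18.2 RPKM in shHepaCAM. Again the groups did not overlap, with a log2 change of -0.23 (SE 0.06), but the limma adjusted p was 0.0735. After scaling by the median gene it was called, at -0.32 and an adjusted p of 0.0374, but in 15 of 17 alternatives it was not. With any single library dropped, the limma adjusted p was 0.0892 to 0.203, and without both libraries low in Ttr it was 0.322, with a change of -0.16. Kcnc4 had overlapping groups, at 21.8 to 23.9 RPKM in shControl and 22.9 to 27.4 RPKM in shHepaCAM.

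Interneuron markers were read beside the Kv3 genes, because these cells hold much of the Kv3 transcript. None of the 8 passed the test, and their median log2 change was -0.07. Pvalb, which marks fast-spiking interneurons, stood at 26.4 to 27.5 RPKM in shControl and 23.9 to 31.0 RPKM in shHepaCAM. Gad1 was higher in all shHepaCAM libraries, at 39.0 to 40.8 against 32.6 to 35.8 RPKM (limma adjusted p = 0.0820). Changes were below 0 for 6 of the 8 markers. The summed level of the 8 markers, most of it Sst, was 425 to 447 RPKM in shControl and 320 to 464 RPKM in shHepaCAM. Its low value came in shHepaCAM replicate 2, where Sst stood at 183 RPKM against 272 to 296 RPKM in the other libraries. That library also had the lowest Kcnc2. Without it, Kcnc2 changed by -0.42 with a limma adjusted p of 0.0309. What part the number of interneurons has in the Kcnc2 value was not tested.

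Kcna4 rose among the Kv1 genes. It encodes the Kv1 subunit that inactivates fast and is carried in axons. Its level was 6.75, 5.21 and 4.55 RPKM in shControl and 8.14, 10.8 and 9.57 RPKM in shHepaCAM. Every shHepaCAM value was above every shControl value. The means were 5.51 ± 1.13 and 9.51 ± 1.34 RPKM (SD, n = 3 each), 72.8% higher. The log2 change was 0.70 (SE 0.14) and its limma adjusted p was 0.0395. This rests on 1323 and 2224 reads. It missed the threshold without shControl replicate 2 or 3 (adjusted p = 0.131 and 0.125) and without shHepaCAM replicate 2 or 3 (0.1004 and 0.0970).

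The other Kv1 genes were not called. Kcna2, the most abundant of the class and a subunit of axonal delayed rectifiers, stood at 13.7, 12.7 and 12.1 RPKM in shControl and 11.4, 12.6 and 12.2 RPKM in shHepaCAM, with overlapping groups and a log2 change of -0.08 (SE 0.07, adjusted p = 0.509 by limma). Kcna1, its usual partner in axons, averaged 10.5 ± 1.12 and 11.1 ± 2.70 RPKM (SD, n = 3 each). Kcna6 was lower in all shHepaCAM libraries, at 6.42 to 6.94 against 7.40 to 9.06 RPKM, with a limma adjusted p of 0.141. Kcna3, a subunit also used by lymphocytes and microglia, was higher in all shHepaCAM libraries, at 1.28 to 2.54 against 0.741 to 1.18 RPKM (adjusted p = 0.213). Microglia markers rose in the same libraries, and their part in the Kcna3 values was not tested.

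Kcnh3 rose in the Kcnh family (Kv10 to Kv12). It encodes a forebrain channel that opens at subthreshold potentials and damps the excitability of pyramidal neurons. Its level was 31.1, 34.0 and 32.1 RPKM in shControl and 39.9, 45.7 and 44.2 RPKM in shHepaCAM. The groups stand well apart. Their means were 32.4 ± 1.497 and 43.3 ± 2.98 RPKM (SD, n = 3 each), 33.5% higher. The log2 change was 0.40 (SE 0.07) and its limma adjusted p was 0.0240. After scaling by the median gene, the change was 0.32 and the adjusted p 0.0505. The call was also lost when any single library except shHepaCAM replicate 1 was dropped, with adjusted p-values of 0.0538 to 0.107.

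The remaining Kcnh genes went both ways and none was called. Kcnh4 and Kcnh7, close relatives of Kcnh3 and of the ERG channel, were higher in all shHepaCAM libraries, at 2.50 to 4.78 against 1.22 to 2.09 RPKM and at 2.80 to 3.93 against 2.09 to 2.71 RPKM. Their limma adjusted p-values were 0.117 and 0.134. Kcnh2, the ERG channel known from the heart, was lower in all shHepaCAM libraries, at 4.30 to 7.50 against 7.70 to 9.39 RPKM (adjusted p = 0.166). Kcnh1 averaged 7.11 ± 0.943 and 6.64 ± 0.764 RPKM (SD, n = 3 each). Summed over all 8 Kcnh genes, the level was 50.5 to 56.8 RPKM in shControl and 60.5 to 69.8 RPKM in shHepaCAM, and most of that sum is Kcnh3.

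**Figure D3:**
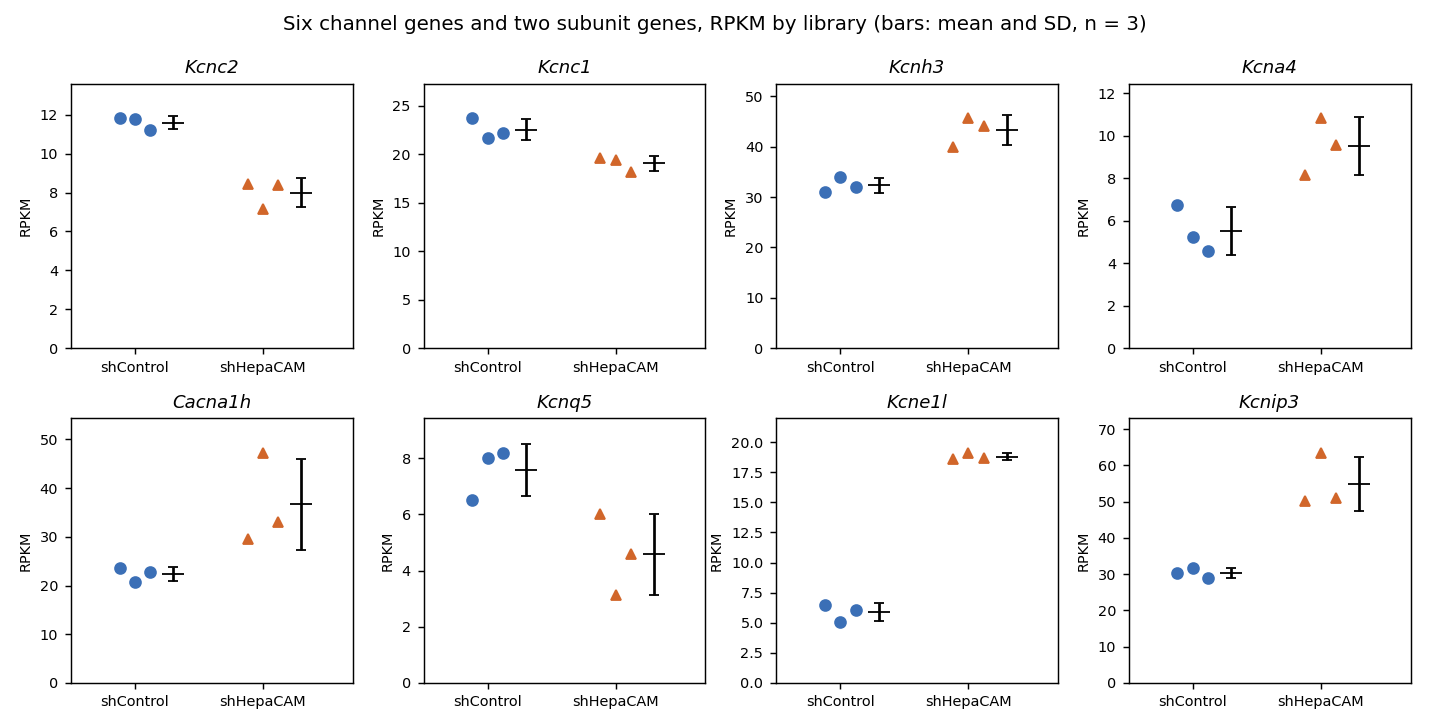
RPKM by library for 6 channel genes and 2 genes of channel partners, with the mean and SD of each group of 3 beside the points and axes that start at 0. The groups do not overlap in any panel, and Cacna1h has 1 shHepaCAM library at 47.3 RPKM, well above the other 2.

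The stretch before the transcription start is shown for the called genes found in the RefSeq promoter table, with Kcnc1 for comparison, because the 2 Kv3 genes had lower values and Kcna4 higher ones. The table holds 37 of the 54 channels. Kcnh3 has no entry. Each stretch is the 250 bases before the start on the plus strand of build GRCm38.p6: chr2:107290339-107290588 for Kcna4, chr10:112269767-112270016 for the first of 4 starts of Kcnc2, and chr7:46396218-46396467 for Kcnc1. Capitals mark the GC box GGGCGG and the core of the cAMP response element TGACG, each searched on both strands.
Kcna4: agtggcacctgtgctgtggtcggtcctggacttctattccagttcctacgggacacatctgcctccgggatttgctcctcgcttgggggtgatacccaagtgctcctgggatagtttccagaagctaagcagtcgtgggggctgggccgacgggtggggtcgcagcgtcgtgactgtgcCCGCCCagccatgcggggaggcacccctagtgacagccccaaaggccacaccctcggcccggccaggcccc
Kcnc2: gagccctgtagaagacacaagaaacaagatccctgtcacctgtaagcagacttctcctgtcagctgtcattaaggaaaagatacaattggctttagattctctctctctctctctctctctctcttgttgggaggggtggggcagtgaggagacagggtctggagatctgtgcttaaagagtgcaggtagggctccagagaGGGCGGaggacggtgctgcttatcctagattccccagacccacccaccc
Kcnc1: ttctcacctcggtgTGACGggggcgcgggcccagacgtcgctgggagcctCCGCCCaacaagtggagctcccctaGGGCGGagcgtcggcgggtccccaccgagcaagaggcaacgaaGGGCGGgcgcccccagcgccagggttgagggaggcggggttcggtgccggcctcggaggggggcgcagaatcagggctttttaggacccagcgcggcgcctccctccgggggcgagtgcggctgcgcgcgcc
Kcnc1 holds 3 GC boxes and 1 cAMP response element core, and Kcna4 and Kcnc2 hold 1 GC box and no core each. G and C made up 74.4% of the Kcnc1 stretch, 65.2% of that of Kcna4 and 52.4% of that of Kcnc2. Of 32851 promoter stretches of this length, 32.7% hold a GC box and 17.8% the core, beside 45.7% and 17.4% of the 46 stretches of channel genes. A match to so few letters describes the sequence and is not a binding site.

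In the Kv7 class, whose neuronal members carry the M-current that restrains repetitive firing, no gene was called. Kcnq5 had the widest difference of the class, at 6.53, 8.02 and 8.19 against 6.01, 3.13 and 4.604 RPKM, and was picked out after its values were seen. Its change was -0.65 (SE 0.19, adjusted p = 0.0926), and it was called without shHepaCAM replicate 1, at -0.83 and an adjusted p of 0.0397. Without shHepaCAM replicate 2 it was -0.45 (0.139), and Kcnq5 was not called in 15 of 17 alternatives. Kcnq3, a subunit of neuronal M-channels, went the other way, at 12.7, 10.6 and 12.3 against 11.9, 15.5 and 15.4 RPKM, with overlapping groups.

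Kcnb2, a delayed rectifier of the Kv2 class, and the Kv4 genes were not called. Kcnb2 averaged 1.39 ± 0.182 and 1.45 ± 0.282 RPKM (SD, n = 3 each). Kcnd2, the A-type channel of pyramidal dendrites, had 25.2, 21.5 and 23.1 RPKM in shControl and 22.3, 25.5 and 30.4 RPKM in shHepaCAM. Its log2 change was 0.15 (SE 0.11, adjusted p = 0.462 by limma). These groups overlap, and so do those of Kcnd1 and Kcnd3, with limma adjusted p-values of 0.783 and 0.607.

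HCN channels were led by Hcn2, the most abundant channel gene of all, at 57.8, 55.3 and 54.6 RPKM in shControl and 66.1, 60.6 and 58.9 RPKM in shHepaCAM. The shHepaCAM values were higher without overlap, but the log2 change was 0.14 (SE 0.06, limma adjusted p = 0.218). Hcn3 averaged 4.10 ± 0.523 and 3.73 ± 0.0914 RPKM (SD, n = 3 each) and was not called, and Hcn4 lay under the filter.

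Sodium channel genes showed no difference that the test could detect. Scn8a, the main channel of the axon initial segment in adult neurons, stood at 21.1, 18.9 and 19.4 RPKM in shControl and 17.8, 19.7 and 20.6 RPKM in shHepaCAM. Its log2 change was -0.03 (SE 0.07), with a 95% interval of -0.20 to 0.14 (adjusted p = 0.834 by limma). Scn2a, the early axonal channel of excitatory neurons, had a log2 change of 0.01 with an interval of -0.16 to 0.18. Scn1a, which serves inhibitory interneurons above all, had the smallest p of the class, at 8.97, 6.62 and 7.16 against 6.44, 6.24 and 7.31 RPKM. Its change was -0.16 (SE 0.11) with an interval of -0.42 to 0.11 (adjusted p = 0.441 by limma). Scn3a, best known from the developing brain, averaged 3.58 ± 0.386 and 3.67 ± 0.696 RPKM (SD, n = 3 each). The groups overlapped for all 4 sodium channel genes tested.

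Among calcium channels, the T-type class (Cav3), which opens near rest and drives burst firing, held the largest differences. Cacna1h had 23.5, 20.7 and 22.7 RPKM in shControl and 29.6, 47.3 and 33.1 RPKM in shHepaCAM. All shHepaCAM values were above all shControl values, but they were spread: 36.6 ± 9.34 against 22.3 ± 1.46 RPKM (SD, n = 3 each). The log2 change of 0.67 (SE 0.16) had a limma adjusted p of 0.0558, just outside the threshold. Without the high library, shHepaCAM replicate 2, the change was 0.47 and passed (adjusted p = 0.0433); without shHepaCAM replicate 1 it was 0.80 (0.0377). It did not pass without shControl replicate 1, 2 or 3 (adjusted p = 0.118, 0.172 and 0.159 by limma) or without shHepaCAM replicate 3 (0.0993), and was not called in 11 of 17 alternatives. Cacna1g was also highest in shHepaCAM replicate 2, at 6.91 to 7.53 in shControl and 9.26, 13.6 and 7.19 RPKM in shHepaCAM, with overlapping groups. Cacna1i averaged 7.99 ± 0.165 and 8.27 ± 0.615 RPKM.

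The other calcium channel genes were not called. Cacna1a, the P/Q-type channel of fast transmitter release, stood at 20.02, 18.9 and 18.8 RPKM in shControl and 18.5, 21.2 and 20.2 RPKM in shHepaCAM, a difference of 0.05 (SE 0.07, adjusted p = 0.702 by limma) with a 95% interval of -0.11 to 0.21. Cacna1b, the N-type channel of the same terminals, had 11.7, 10.8 and 12.9 against 10.3, 11.1 and 10.9 RPKM, a difference of -0.11 (SE 0.08, adjusted p = 0.410 by limma) with an interval of -0.30 to 0.07. Cacna1e, the R-type channel, averaged 15.1 ± 0.826 and 14.1 ± 1.19 RPKM (SD, n = 3 each). Of the L-type genes, which link activity to transcription, Cacna1c had 6.06, 6.13 and 5.59 RPKM in shControl and 5.23, 6.40 and 4.97 RPKM in shHepaCAM (log2 change -0.09, SE 0.10, adjusted p = 0.613 by limma). Cacna1d averaged 4.83 ± 0.319 and 4.91 ± 0.184 RPKM. All these groups overlap.

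The 16 channels under the filter averaged between 0.0027 RPKM for Scn10a and 0.666 RPKM for Kcna5, while the lowest channel tested, Kcna3, averaged 1.38 RPKM. They include genes better known from muscle, retina or sensory ganglia. Cacna1s of skeletal muscle had 16 reads over the shControl and 47 over the shHepaCAM libraries, and Cacna1f of the retina 37 and 35. Scn10a and Scn11a of pain-sensing neurons had 1 and 1 and 1 and 3 reads, Scn4a 2 and 14, Kcna7 3 and 3 and Kcna10 1 and 5. Kcna5, Kcnh5, Kcnh6, Kcnh8, Kcnq1, Hcn4, Scn7a and Scn9a had 19 to 170 reads in a group. With no filter all 54 were tested and none was called, while 169 of 29872 genes were.

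Of 46 genes listed for partner proteins of the channels, 40 were tested and 3 were called (7.5%), 2 higher and 1 lower, a share near the 6.07% of all genes tested. Kcne1l (also called Kcne5), a small membrane subunit that slows or silences Kv channels, had 6.48, 5.05 and 6.09 RPKM in shControl and 18.6, 19.1 and 18.7 RPKM in shHepaCAM. The groups lie far apart and the shHepaCAM values are nearly equal. The ratio of means was 3.20, the log2 change 1.53 (SE 0.09) and the limma adjusted p 0.000682, and it was called in 17 of 17 alternatives at the same threshold. Kcnip3, a calcium-binding subunit of Kv4 channels that also acts as a transcriptional repressor, went from 30.3, 31.7 and 28.8 to 50.1, 63.4 and 50.9 RPKM. Its change was 0.83 (SE 0.10, adjusted p = 0.00924), which held in 15 of 17 alternatives. Dpp6, a Kv4 subunit of dendrites, fell from 33.3, 29.4 and 31.7 to 25.4, 24.0 and 24.0 RPKM, a change of -0.35 (SE 0.06, adjusted p = 0.0299) that held in 8 of 17.

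The other partners were not called, and the 40 tested had a median log2 change of 0.03. Those described next were picked after their values were seen. Cacnb3, a cytoplasmic calcium channel subunit, was lower in all shHepaCAM libraries, at 61.5, 51.7 and 44.8 against 71.4, 75.4 and 70.0 RPKM, with a limma adjusted p of 0.0552. Sodium channel beta subunits had 0 of 4 called. Silent Kv subunits had 0 of 8 called, although Kcns1 was at 3.66 to 4.61 in shControl and 5.35 to 5.74 RPKM in shHepaCAM (adjusted p = 0.0721). Kcne2, a subunit abundant in choroid plexus, followed Ttr rather than the groups, at 0.298, 24.0 and 14.7 RPKM in shControl and 11.8, 8.17 and 0.311 RPKM in shHepaCAM.

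**Figure D4:**
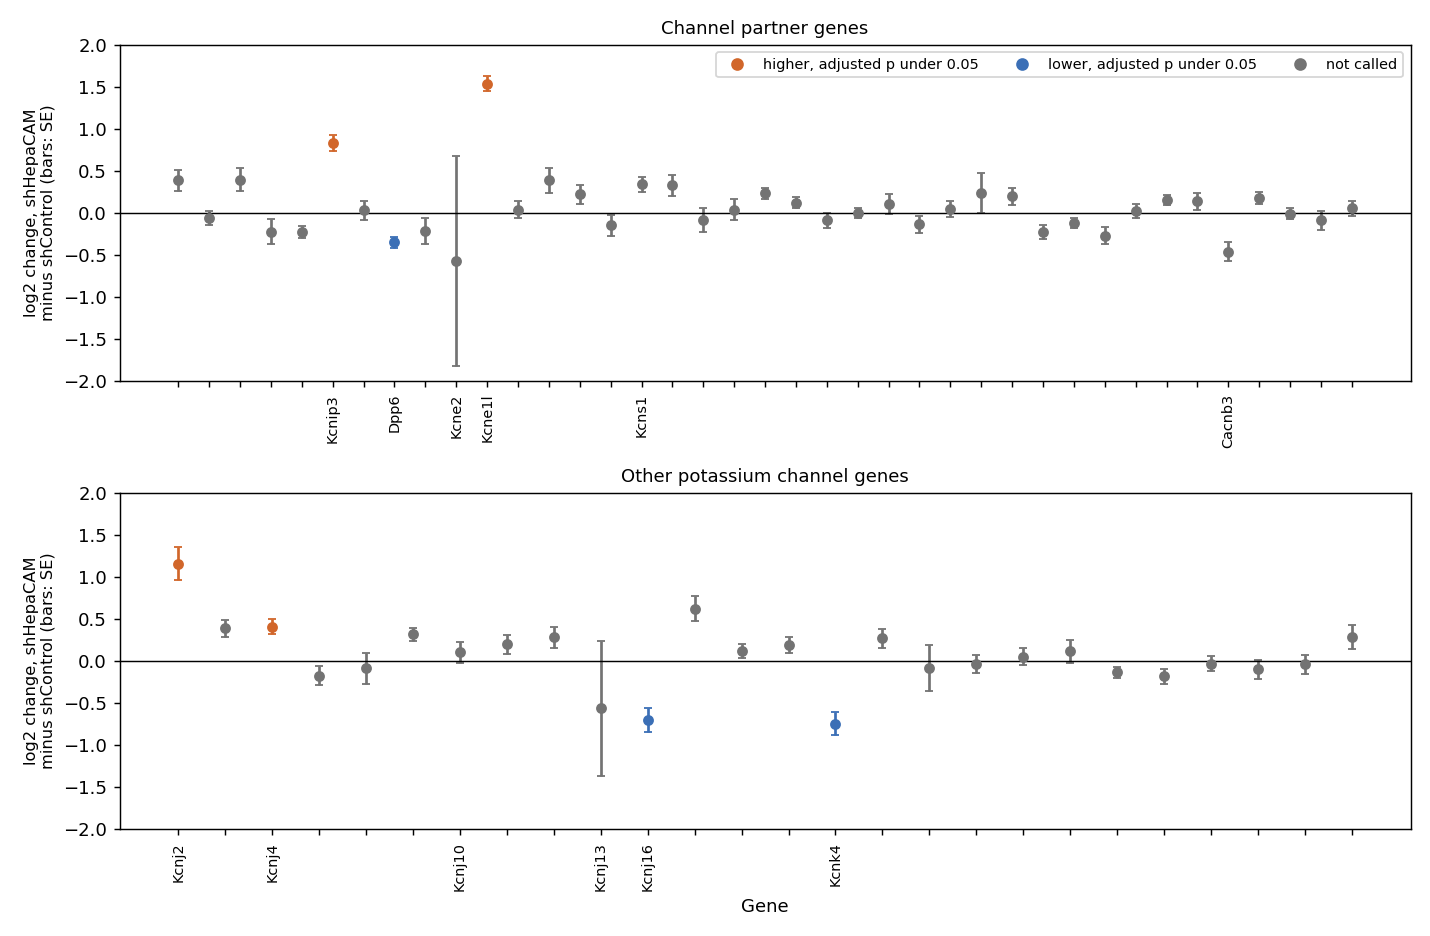
The log2 change with its standard error for 39 channel partner genes (top) and 26 other potassium channel genes (bottom), with symbols under those named in the text. Kcne1l stands highest at 1.53, and Kcne2 and Kcnj13, both transcripts of choroid plexus, have the widest errors.

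Of 26 other potassium channel genes tested (37 were listed, and 35 have a row), 2 rose and 2 fell, 15.4% of those tested, beside 6.07% of all genes (4.23% higher and 1.84% lower). No test compared the list with other genes. Kcnj2, an inward rectifier that sets the resting potential in neurons and microglia, went from 2.81, 2.14 and 1.84 to 4.40, 7.82 and 6.88 RPKM (log2 change 1.16, SE 0.20, limma adjusted p = 0.0238). Kcnj4, a related rectifier of forebrain neurons, went from 39.8, 38.7 and 35.3 to 45.0, 54.5 and 52.7 RPKM (0.41, adjusted p = 0.0416). Kcnj16, which pairs with the glial rectifier Kcnj10, fell from 4.11, 4.44 and 4.18 to 2.81, 2.39 and 1.60 RPKM (-0.70, adjusted p = 0.0394). Kcnk4, a leak channel opened by stretch and lipids, fell from 7.09, 6.96 and 6.34 to 4.72, 2.999 and 3.38 RPKM (-0.75, adjusted p = 0.0287). In the annotation used, its exons share 587 bases on the same strand with Catsperz, so reads of these genes cannot be told apart there. Catsperz itself went from 6.96, 6.42 and 5.84 to 5.02, 2.86 and 2.66 RPKM (-0.75, limma adjusted p = 0.0627, not called). On the opposite strand, Kcna6 shares 2355 exon bases with Gm26673 and Kcnh7 shares 696 with Gca, and the strand setting is not known. None of the 4 was called when shControl replicate 2 or 3 was left out, nor without shHepaCAM replicate 2 or 3.

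Channel transcripts are long, with a median annotated exon length of 9675 bases over the 38 tested against 4132 bases over all genes tested. Of 739 genes over 12000 bases, 0.406% rose and 1.76% fell, and of 3889 genes of 2000 to 4000 bases, 5.89% rose and 1.93% fell, a difference that was not tested. The median log2 change was 0.05 in both bins. With a trend on length and GC content removed from each library, Kcnh3, Kcna4 and Cacna1h were called higher and Kcnc2 lower.

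Neuronal markers give the setting for these values. Of 10 general neuron markers, Tubb3 and Snap25 fell and none rose, where 4.23% of all genes tested were called higher and 1.84% lower. Values in shHepaCAM lay wholly below those in shControl for 7 of the 10 and wholly above for 0. Over all genes tested, 31.5% had groups that did not overlap. The markers' median was -0.19, and their summed level was 930 to 951 RPKM in shControl and 676 to 813 RPKM in shHepaCAM. The sum was lowest in shHepaCAM replicate 2, where Cacna1h, Kcna4 and Kcnh3 were highest and Kcnq5 and Kcnc2 lowest. In that library Prox1 was also highest, at 25.0 RPKM. Its summed dentate markers stood at 141 RPKM, against 112 to 141 RPKM in the other libraries. Its CA2 and CA3 markers summed to 86.6 RPKM, against 117 to 130 RPKM in the others. Markers of CA1 and of CA2 and CA3 neurons had 0 of 6 and 0 of 8 called, with medians of 0.12 and -0.30. Of 7 dentate granule markers Trpc6 rose, with a median of 0.13. Oligodendrocyte (7), astrocyte (6), choroid plexus (8), thalamus (5) and vascular muscle (2) markers tested had 0 called, with medians of 0.24, 0.13, -0.60, -0.20 and 0.03. What part the makeup of the tissue has in the channel values was not tested.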

How the data were processed

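RNA of mouse hippocampus was sequenced in 3 shControl and 3 shHepaCAM libraries, grouped by title. The authors deposited RPKM values per gene, 1 file per library; per the submitters' processing notes TopHat2 2.0.12, Bowtie2 2.0.6 and build mm39 were used, and the read counter, annotation and use of strand: not given in the sources used here. GENCODE M21 gave symbols for 29805 genes, classes and exon lengths; since it is on another build, no coordinate of it is printed.

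RPKM steps of 1 read gave each library's depth and whole reads (within 0.01 read for 27390 genes, by a step of their own for 2477 more). Intervals here cover the spread between libraries. limma 3.58.1 with a mean-variance trend (R 4.3.3) was run on log2(RPKM + 1), which understates changes of low genes, keeping genes that averaged 1 RPKM or more, with Benjamini-Hochberg adjustment over all 13864 and a threshold of 0.05. An exact permutation test of 3 against 3 cannot go below 0.1 and was not used. Replicates differed by more than counting noise (chi-square per degree of freedom of 4.02 or more).

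The channels, the marker, partner and potassium channel lists and the tests were chosen with earlier results of these data known. Named with values per library are called members, the most abundant member and the smallest p in each class; Kcnc1, Kcnq5 and others were added after their values were seen. Listed genes were named if called. Values of some genes that this rule names are not reported here. Alternatives were scalings, filters, a pseudocount of 0.1, other variance models, a replicate block, limma-voom on whole reads, a GC and length correction and left-out libraries. Figures used matplotlib 3.10.9 in Python 3.11.15.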

Additional observations from a re-analysis of the deposited data

How the results depend on the processing

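The counts of called channels and of other potassium channels are small and moved with most settings. The count of called partners is also small and moved with fewer settings. No called channel, partner or other potassium channel gene reversed its direction in any alternative. Their groups do not overlap, so leaving out libraries could not have reversed them. Filters, limma without trend and the replicate block leave the change itself as it was. Channels called lower (1) and higher (2) became 2 and 2 with quantile normalization, 2 and 1 after scaling by the median gene, 0 and 0 with no filter, 1 and 1 with limma without trend, 2 and 3 with limma-voom on whole reads, and 4 and 3 at an adjusted p of 0.1. They were 0 and 0 with shControl replicate 1 and shHepaCAM replicate 3, both low in Ttr, left out together. With single libraries left out they ranged from 0 to 2 lower and 0 to 4 higher. Partner genes called (3) were 1 without both those libraries, 6 at the wider threshold, and 1 to 5 with single libraries left out. Other potassium channels called (4) were 0 with no filter, 7 with limma-voom, 0 without both those libraries, 7 at the wider threshold, and 0 to 7 with single libraries left out. All genes called (842) were 169 with no filter, 104 without both those libraries, 1677 at the wider threshold, and 98 to 867 with single libraries left out. The split of all calls was 587 higher and 255 lower, 390 and 341 with quantile normalization, and 336 and 347 with scaling to the median gene. The cause of these moves was not tested.

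With the replicate number as a block (replicate block), 157 genes were called in all, with 0 channels lower, 0 higher and 0 other potassium channels, and 2 partners. Same-numbered libraries did not deviate together (correlations of -0.21, 0.02 and -0.14). With 3 libraries in each group, these values cannot settle whether the numbers pair the samples. Depth limits the channels under the filter, several of which rest on fewer than 20 reads.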
